A study of Mus musculus with 9 samples.

Results

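The 10 genes described here encode enzymes of the pentose phosphate pathway and of glutathione metabolism in mouse female germ cells. They were taken by gene symbol (G6pdx, Pgls, Pgd, Tkt, Taldo1, Gclc, Gclm, Gss, Gsr and Gpx4), and each matched 1 of the 37980 gene rows in the deposited tables. RNA was sequenced from 3 libraries of E12.5 PGCs (primordial germ cells, the fetal precursors of the gametes, from female embryos at embryonic day 12.5), 2 of FGSCs (female germline stem cells), 2 of GV oocytes (arrested in prophase with an intact germinal vesicle) and 2 of MII oocytes (ovulation-stage oocytes arrested in meiosis II). All samples were labelled as female C57BL/6 at passage 0. According to the study's methods, E12.5 PGCs and FGSCs came from Mvh-cre;ROSA mT/mG mice, in which Mvh-driven Cre switches on GFP, and were sorted by this reporter or by Mvh. FGSCs came from ovaries at 3 to 5 days of age. The methods describe fully grown oocytes from C57BL/6 females 6 weeks old, primed with gonadotropin, and the GV oocytes were taken to be these. The collection of MII oocytes is not given in the sources used here.

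The pentose phosphate pathway diverts glucose 6-phosphate from glycolysis. Its oxidative branch reduces NADP+ to NADPH, and its non-oxidative branch exchanges sugar phosphates between ribose and the glycolytic intermediates. NADPH keeps glutathione, the main small thiol of the cell, in its reduced form through glutathione reductase, and glutathione in turn feeds peroxidases and transferases. In oocytes the pathway is known for its link to the resumption of meiosis, and glutathione is known to build up during maturation and to serve the decondensation of the sperm head after fertilization.

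The deposited tables hold 1 FPKM value (fragments scaled to the length of the transcript and to the number of mapped fragments) per gene and cell type, a single pool of that cell type's libraries made by the authors. The spread between libraries could therefore not be estimated, no difference below was tested, and cell types that stand next to each other in an order of levels cannot be said to differ beyond error. The depth behind the values is unknown. The tables sum to 688500 FPKM in E12.5 PGCs, 417955 in FGSCs, 560962 in GV oocytes and 1232437 in MII oocytes. Values rescaled to a total of 1000000 per cell type (TPM) are therefore given where they change the direction of a member's difference, a count of members or a count of a pathway list. Levels of genes other than the members are given in FPKM only, and their order can change in TPM. The median log2 ratio of genes above 1 FPKM in both cell types was -0.29 for FGSCs against E12.5 PGCs in FPKM and 0.43 in TPM, and 0.60 and -0.54 for MII against GV oocytes. The 6 germ cell markers were all above 1 FPKM in every cell type and summed to 1421, 679, 4605 and 11186 FPKM, with Ddx4, a germ cell RNA helicase, at 64.0, 59.0, 31.9 and 17.2. The 8 oocyte markers summed to 10366 FPKM in GV and 26166 in MII oocytes but to 16.1 and 15.2 in E12.5 PGCs and FGSCs. The 10 erythroid markers summed to 16044 FPKM in E12.5 PGCs (8 of 10 at 1 FPKM or more, Epor and Gata1 at 0), 6233 in FGSCs (9 of 10), 42.6 in GV oocytes (5 of 10) and 7.78 in MII oocytes (2 of 10, with 8 of 10 at 0). Of the embryonic globin genes among them, Hbb-y was at 3378, 3273, 9.60 and 0 FPKM in that order. Hba-x was at 10452, 1599, 10.2 and 0, and Hbb-bh1 at 504, 329, 1.64 and 0. The source of these transcripts in FGSCs was not tested. The 8 granulosa and pregranulosa markers summed to 117, 228, 62.2 and 5.31 FPKM in that order, with Foxl2 and Amh at 0 in E12.5 PGCs, Amh at 0 in FGSCs and Amhr2 at 0 in MII oocytes. In GV oocytes 3 of them (Foxl2, Inha and Amh) were higher by 2-fold than in either early germ cell type and 4 were lower, and Inha alone had 43.6 FPKM. The part of these other cells in the levels of the members was not tested. In such bulk samples fewer cells of a type and less RNA per cell cannot be told apart.

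G6pdx, glucose-6-phosphate dehydrogenase, which catalyses the rate-limiting step of the oxidative branch, was the member with the widest contrast between early germ cells and GV oocytes. It had 3.08 FPKM in E12.5 PGCs, 7.44 in FGSCs, 127 in GV oocytes and 69.9 in MII oocytes. Both oocyte stages thus stood above both early germ cell types, in FPKM and in TPM (4.47, 17.8, 226 and 56.7 TPM). The contrast between MII oocytes and FGSCs was smaller in TPM than in FPKM. The level in GV oocytes was 41.2-fold that in E12.5 PGCs and 17.1-fold that in FGSCs. Among 16135 genes at 1 FPKM or more in at least 1 cell type, G6pdx stood at the 47.3 percentile in E12.5 PGCs, the 61.1 percentile in FGSCs, the 94.8 percentile in GV oocytes and the 85.9 percentile in MII oocytes.

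The remaining enzymes of the oxidative branch did not share this pattern. Pgls, 6-phosphogluconolactonase, which opens the lactone that G6pdx makes, had 80.4 FPKM in E12.5 PGCs, 136 in FGSCs, 242 in GV oocytes and 4.79 in MII oocytes. It was abundant in the first 3 of these and low in MII oocytes, at 0.0198 of the GV value. Pgd, 6-phosphogluconate dehydrogenase, the later NADPH-producing enzyme of the branch, had 12.9, 33.3, 18.8 and 4.30 FPKM in that order, highest in FGSCs and lowest in MII oocytes. Its range over the cell types was 7.73-fold, against 41.2-fold for G6pdx and 50.6-fold for Pgls.

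**Figure D1:**
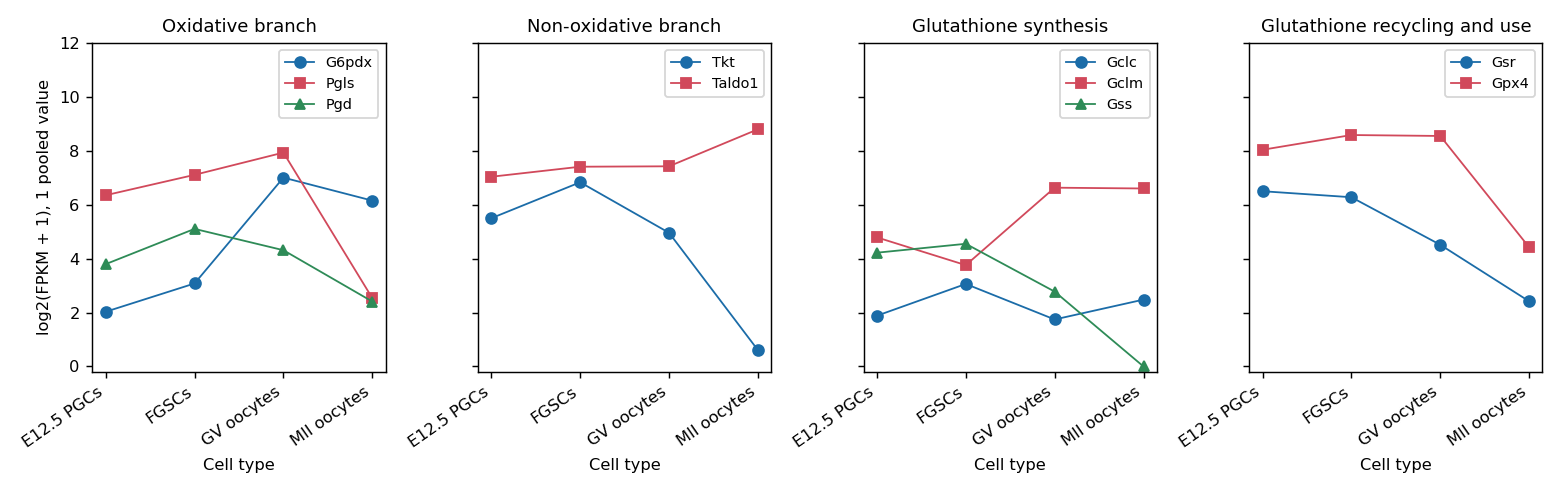
Level of each of the 10 enzymes as log2(FPKM + 1) on the vertical axis, with the 4 cell types on the horizontal axis and 1 panel per role; each point is the pooled value of a cell type, without error bars because none can be computed, and lines only join the points of a gene. G6pdx and Gclm are high in both oocyte stages, whereas Pgls, Pgd, Tkt, Gss, Gsr and Gpx4 are lowest in MII oocytes.

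The enzymes of the non-oxidative branch stood furthest apart in MII oocytes. Tkt, transketolase, had 44.1 FPKM in E12.5 PGCs, 113 in FGSCs, 30.0 in GV oocytes and 0.524 in MII oocytes. Taldo1, transaldolase, which works on the same sugar phosphates, had 130, 168, 170 and 442 FPKM in that order. Tkt was lowest and Taldo1 highest in MII oocytes in FPKM. In TPM Tkt stayed lowest there (0.425), while Taldo1 was at 189, 403, 303 and 358, so that FGSCs then stood above MII oocytes. Taldo1 varied least between cell types after Gclc, by 3.40-fold in FPKM, and was at the 94.2 percentile or above everywhere. In TPM Taldo1 varied least of the members, while Gclc ran from 3.71 in MII oocytes to 17.5 in FGSCs.

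Glutathione is made by glutamate-cysteine ligase, a dimer of the catalytic subunit Gclc and the modifier subunit Gclm, and by glutathione synthetase, Gss, which adds glycine. Gclc was low throughout, with 2.68 FPKM in E12.5 PGCs, 7.33 in FGSCs, 2.35 in GV oocytes and 4.57 in MII oocytes. Gclm had 26.6, 12.5, 97.8 and 95.8 FPKM in that order. The modifier subunit was thus higher in both oocyte stages than in both early germ cell types, in FPKM and in TPM, whereas the catalytic subunit was highest in FGSCs. Gss had 17.6 FPKM in E12.5 PGCs, 22.4 in FGSCs, 5.85 in GV oocytes, and was listed at 0 in MII oocytes.

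Reduced glutathione is restored by Gsr, glutathione reductase, and is used by Gpx4, the selenoenzyme that reduces lipid hydroperoxides in membranes. Gsr had 89.2 FPKM in E12.5 PGCs, 76.3 in FGSCs, 21.8 in GV oocytes and 4.34 in MII oocytes. Each oocyte stage was below both early germ cell types, and MII oocytes were below GV oocytes, in FPKM and in TPM. Gpx4, the most abundant member in all cell types but MII oocytes, had 261, 381, 372 and 20.4 FPKM in that order. It stood at the 98.4 percentile in GV oocytes and at the 72.0 percentile in MII oocytes. Summed by role, the FPKM of Gsr and Gpx4 came to 350, 457, 394 and 24.7 over the cell types, that of the 3 synthesis genes to 46.8, 42.2, 106 and 100.3, that of the oxidative branch to 96.3, 177, 388 and 79.0, and that of the non-oxidative branch to 174, 281, 200.1 and 442. As a percent of all FPKM of a cell type, the synthesis genes made 0.0068, 0.0101, 0.0189 and 0.0081. The non-oxidative branch made 0.0253, 0.0672, 0.0357 and 0.0359, highest in FGSCs. The remaining sums kept their order of cell types.

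**Figure D2:**
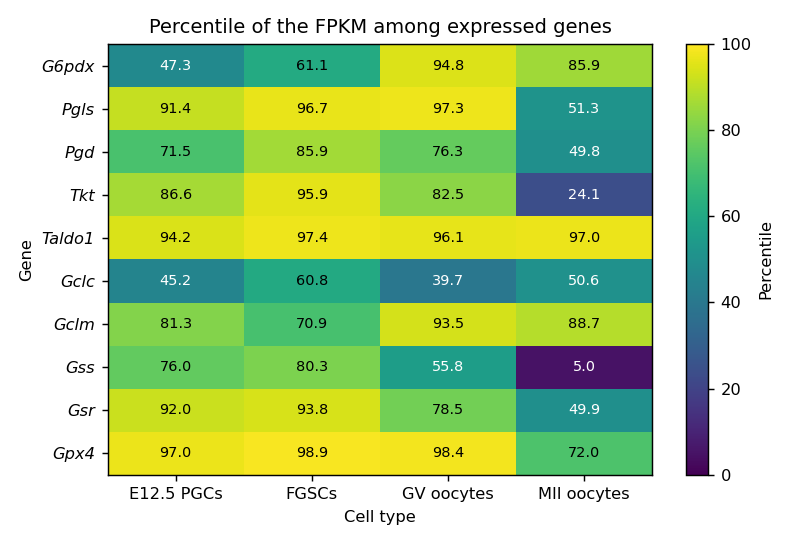
Percentile of each member's FPKM (colour and number, 0 to 100) among the 16135 genes at 1 FPKM or more in at least 1 cell type, with genes as rows and the 4 cell types as columns. Within this set of genes, which was chosen by FPKM, percentiles do not depend on how a cell type is scaled, but the choice of the set does. Gss in MII oocytes is tied with all other genes listed at 0, G6pdx goes from 47.3 to 94.8 between E12.5 PGCs and GV oocytes, and Taldo1 stays between 94.2 and 97.4.

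Ratios of members within a cell type do not depend on its scaling, and FPKM is already per length. How evenly the transcripts were primed and amplified was not tested. G6pdx was at 0.239 of the FPKM of Pgd in E12.5 PGCs, at 0.223 of it in FGSCs, and at 6.75 times its FPKM in GV oocytes and 16.2 times in MII oocytes. The order of these dehydrogenases was thus turned between early germ cells and oocytes. The level of G6pdx is uncertain, since it shares its span with another gene, as given below. The ratio of Gclm to Gclc was 9.90 in E12.5 PGCs, 1.71 in FGSCs, 41.7 in GV oocytes and 20.9 in MII oocytes. Tkt was at 0.340 of the FPKM of Taldo1 in E12.5 PGCs, 0.669 in FGSCs, 0.176 in GV oocytes and 0.00119 in MII oocytes, where Taldo1 was 842-fold higher. The size of this last ratio is uncertain, since it rests on 0.524 FPKM of Tkt. Gpx4 was 2.92-fold, 5.00-fold, 17.1-fold and 4.70-fold the level of Gsr in E12.5 PGCs, FGSCs, GV and then MII oocytes.

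**Figure D3:**
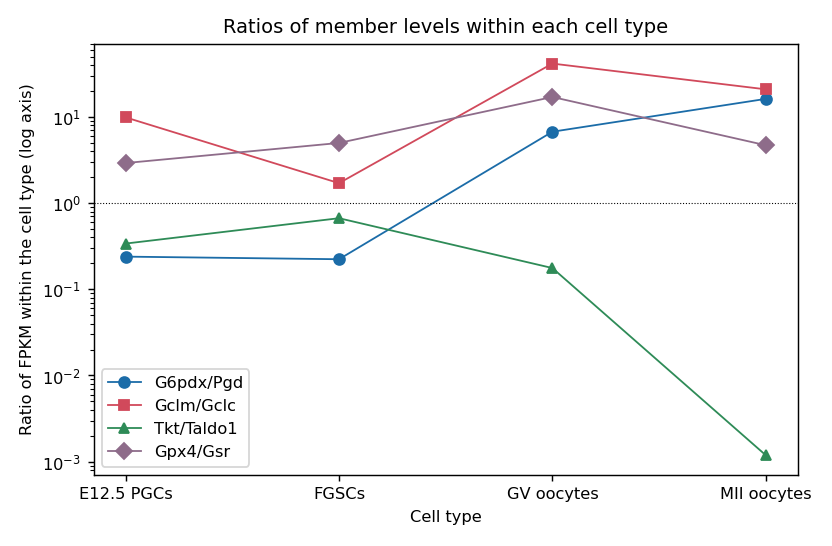
Ratio of FPKM between pairs of members (G6pdx/Pgd, Gclm/Gclc, Tkt/Taldo1 and Gpx4/Gsr) on a log axis for each of the 4 cell types; each point is 1 pooled ratio without error, the dotted line marks equal levels and lines only join the points of a pair. G6pdx/Pgd crosses from 0.223 in FGSCs to 6.75 in GV oocytes, and Tkt/Taldo1 drops to 0.00119 in MII oocytes, where Tkt is at only 0.524 FPKM.

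In the tables' mm9 coordinates G6pdx lies in the span from 71638628 to 71699193 on chromosome X, which it shares with Ikbkg, a regulatory subunit of the kinase complex that activates NF-kappa B. Ikbkg had 3.00, 7.09, 5.92 and 3.70 FPKM in E12.5 PGCs, FGSCs, GV and then MII oocytes, close to G6pdx in both early germ cell types and far below it in both oocyte stages. Gclm lies at 121948474 to 121996465 on chromosome 3, in a span it shares with 3 other genes. Among these Dnttip2, a nucleolar protein gene, was at 139, 47.7, 32.1 and 202 FPKM. Gss shares a span on chromosome 2 with 8 other genes, all below 2 FPKM in every cell type, Pgls shares 1 on chromosome 8 with Fam129c (0.286, 1.79, 4.78 and 4.81 FPKM), and the span mates of Tkt and Gsr were listed at 0. The spans of these 4 run from 155316114 to 155420691 on chromosome 2 (Gss), 74116074 to 74131835 on chromosome 8 (Pgls), 31361544 to 31387908 on chromosome 14 (Tkt) and 34762994 to 34808635 on chromosome 8 (Gsr). The remaining members have spans of their own, at 148524099 to 148540880 on chromosome 4 (Pgd), 148578097 to 148588867 on chromosome 7 (Taldo1), 77602341 to 77642292 on chromosome 9 (Gclc) and 79509910 to 79519184 on chromosome 10 (Gpx4). Whether reads were assigned by strand is not given in the sources used here, so the levels of genes that share a span are uncertain. Reads of near copies are uncertain as well. The longest coding transcript of G6pdx matched that of G6pd2, an intronless copy on chromosome 5, with 93.1% identity over 2331 bases, and G6pd2 was listed at 0 in every cell type. Gpx4 matched Gpx4-ps2, annotated as a processed transcript, with 99.7% identity over 733 bases, and Taldo1 matched the processed pseudogene Gm17823 with 94.7% over 923 bases. No values of these pseudogenes were used here.

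G6pdx and Gclm were the members that stood at least 2-fold higher in GV oocytes than in both E12.5 PGCs and FGSCs, so the 250 bases before their starts are shown, from RefSeq on GRCm38.p6. G6pdx is read from the minus strand of chrX:74428881-74429130 and Gclm from the plus strand of chr3:122245307-122245556. Capitals mark matches, on either strand, to TGACNNNGC (the core of the antioxidant response element, bound by the stress factor Nfe2l2 with small Maf proteins), to GGGCGG (the GC box) and to CCAAT (the CCAAT box), which do not overlap each other here.
G6pdx: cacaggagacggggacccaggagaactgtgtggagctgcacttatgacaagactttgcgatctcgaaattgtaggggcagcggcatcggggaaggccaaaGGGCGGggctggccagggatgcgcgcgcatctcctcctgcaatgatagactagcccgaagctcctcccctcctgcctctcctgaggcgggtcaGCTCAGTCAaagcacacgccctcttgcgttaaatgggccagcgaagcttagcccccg
Gclm: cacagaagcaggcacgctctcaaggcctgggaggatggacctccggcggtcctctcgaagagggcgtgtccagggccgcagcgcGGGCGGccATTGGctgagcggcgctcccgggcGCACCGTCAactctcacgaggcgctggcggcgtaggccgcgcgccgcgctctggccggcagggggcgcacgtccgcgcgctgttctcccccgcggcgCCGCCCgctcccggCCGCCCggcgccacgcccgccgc

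Each of these stretches held 1 match to TGACNNNGC, on the minus strand, with its first base at -57 from the start in G6pdx and at -134 in Gclm. Of the 8 members matched in the table of promoters (12 windows, since Pgd has 2 starts and Gpx4 4), no other held this match. Gclc and Gsr were not matched. Over all 32851 windows of the same length, 10.2% held TGACNNNGC. The GC box was found in 9 of the 12 windows, from 7 of these 8 members, and in 32.7% of all windows. CCAAT was found in 6 of the 12 windows, from 4 members, and in 33.8% of all windows. CANNTG, the E-box to which the oocyte factor Figla binds, was found in 6 of the 12 windows and in 66.2% of all windows. Those 6 came from 3 members (Gpx4, Pgd and Pgls, but neither G6pdx nor Gclm). TATAAA was found in none of the members' windows and in 12.4% of all windows. A match describes the letters only.

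FGSCs stood above E12.5 PGCs for most of the enzymes, in FPKM by less than 3-fold in each case and on single pooled values. On the scale of log2(FPKM + 1), and counting a difference of 1 or more as 2-fold, 4 of the 10 members were higher and 1 was lower in FGSCs. The same size was passed upward by 24.6% and downward by 21.0% of the 13087 genes at 1 FPKM or more in either cell type, and in TPM by 41.7% and 9.18%. In FPKM the counts of members were not far from these shares. At a size of 3-fold 0 members passed in either direction, beside 12.3% of all genes upward and 8.30% downward. The higher members were Pgd (2.59-fold), Tkt (2.55-fold), Gclc (2.73-fold) and G6pdx (2.41-fold), and the lower was Gclm, at 0.471 of its level in E12.5 PGCs. G6pdx lay just past the size, at 1.05, and Gclm at -1.03. The median difference of the members was 0.65 on the log2 scale, beside -0.10 over all genes compared, and 8 of the 10 members lay above that median. In TPM, where the median over all genes was 0.67, the count became 8 higher and 0 lower, with Pgls, Taldo1, Gss and Gpx4 joining the higher members and Gclm at -0.36. Gsr, under 2-fold, was at -0.22 in FPKM and at 0.49 in TPM.

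Between E12.5 PGCs and GV oocytes the enzymes diverged. G6pdx, Pgls (3.02-fold) and Gclm (3.68-fold) were higher in GV oocytes, and Gss, at 0.332 of its level in E12.5 PGCs, and Gsr, at 0.244, were lower, so that 3 members passed 2-fold upward and 2 downward. Over all 13893 genes compared, 34.3% passed upward and 31.3% downward (40.3% and 27.3% in TPM), so the counts stood near the share of all genes. The difference of G6pdx, 4.97 on the log2 scale, was the largest of the members. The median difference was 0.45 over the members and 0.01 over all genes. Gclc, under 2-fold, was at -0.14 in FPKM and at 0.08 in TPM.

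Against FGSCs, GV oocytes had 2 members higher and 4 lower. The comparison has its GV values in common with the preceding one. G6pdx and Gclm (7.82-fold) were higher, and Tkt (0.267 of the FGSC level), Gclc (0.320), Gss (0.261) and Gsr (0.286) were lower. Over all 14162 genes compared, 28.1% passed upward and 27.9% downward (23.8% and 38.7% in TPM). The counts of members stood near these shares. Taldo1 and Gpx4 were nearly level in FPKM, with differences of 0.02 and -0.03 on the log2 scale, and were at -0.41 and -0.46 in TPM. The median difference was -0.41 over the members and -0.05 over all genes, and in TPM Pgd joined the lower members, at -1.22.

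MII oocytes held less of most of these transcripts than GV oocytes. By the 2-fold size 6 of 10 members (Pgls, Pgd, Tkt, Gss, Gsr and Gpx4) were lower in MII oocytes and 1, Taldo1, was higher. Over all 13803 genes compared, 30.6% passed downward and 39.3% upward (45.6% and 23.8% in TPM). GV oocytes had 57.3-fold the level of Tkt in MII oocytes, 50.6-fold that of Pgls, 18.2-fold that of Gpx4, 5.03-fold that of Gsr and 4.37-fold that of Pgd. The fold of Tkt is uncertain in size, since it rests on 0.524 FPKM in MII oocytes. G6pdx (-0.85 on the log2 scale), Gclm (-0.03) and Gclc (0.74) stayed under 2-fold. The median difference was -2.00 over the members and 0.36 over all genes, and 2 of the 10 members, Taldo1 and Gclc, lay above that median. In TPM 8 members were lower, with G6pdx at -1.98 and Gclm at -1.16, and none was higher, with Taldo1 at 0.24. Gclc, above 0 in FPKM, was at -0.14 in TPM. The cDNA was primed on the poly(A) tail, so a change in the amount of an mRNA and a change in its tail cannot be told apart in these values.

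**Figure D4:**
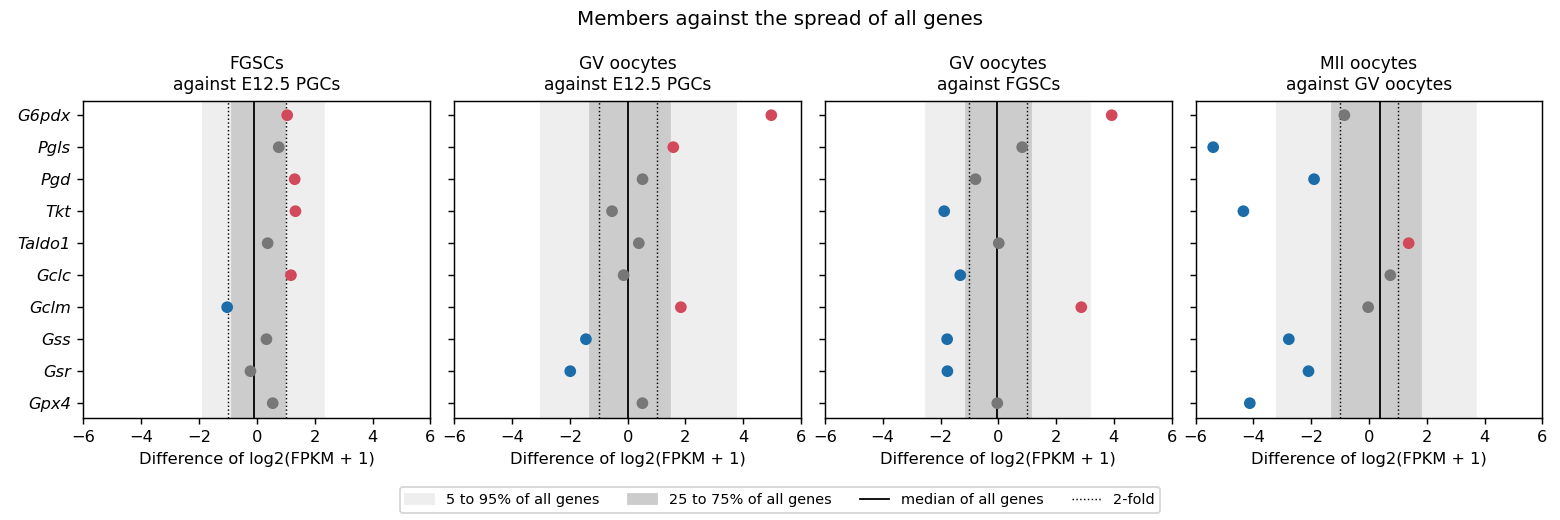
Difference of log2(FPKM + 1) of each member (points) in 4 comparisons, 1 per panel, over the spread of all genes at 1 FPKM or more in either cell type (light band, 5 to 95%; dark band, 25 to 75%; black line, median); dotted lines mark 2-fold, red points are higher and blue points lower by 2-fold or more. G6pdx stands at 4.97 in GV oocytes against E12.5 PGCs, and Pgls, Tkt and Gpx4 are below -4 in MII against GV oocytes.

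G6pdx was set beside 8 other X-linked enzyme genes of the kind used in studies of X-chromosome dosage. Of the 6 of them at 1 FPKM or more in E12.5 PGCs or GV oocytes, all 6 were lower by 2-fold in GV oocytes, where G6pdx was 41.2-fold higher, and 31.3% of all genes were lower by that size. The counts of this and the following lists are to be read beside the shares of all genes given with each comparison above. Hprt, a purine salvage enzyme, had 146, 59.7, 33.0 and 524 FPKM in E12.5 PGCs, FGSCs, GV and then MII oocytes. Pgk1, a glycolytic kinase, was at 148, 75.7, 28.9 and 16.0 FPKM, Idh3g, a subunit of the mitochondrial isocitrate dehydrogenase, at 158, 111, 62.8 and 4.70, and Pdha1, of pyruvate dehydrogenase, at 44.1, 40.3, 9.18 and 6.51. In FGSCs against E12.5 PGCs 1 of 7 was higher and 2 were lower, in GV oocytes against FGSCs 0 of 7 and 3, and in MII against GV oocytes 1 of 5 (Hprt) and 1 (Idh3g). In TPM 1 of 7 was higher and 1 lower in FGSCs against E12.5 PGCs, and the counts lower became 6 of 7 for GV oocytes against E12.5 PGCs, with 1 higher, 6 of 7 against FGSCs, and 5 of 7 for MII against GV oocytes.

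Gpx4 was 1 of 8 glutathione peroxidase genes. Gpx1, the cytosolic enzyme that reduces hydrogen peroxide, had 693 FPKM in E12.5 PGCs, 545 in FGSCs, 176 in GV oocytes and 86.3 in MII oocytes, and thus at 2.66 times the FPKM of Gpx4 in E12.5 PGCs, 0.474 in GV oocytes and 4.23 in MII oocytes. Gpx6 was at 0 in both early germ cell types, 2.21 FPKM in GV oocytes and 107 in MII oocytes, the opposite of Gpx4 between the oocyte stages. Gpx8, an enzyme of the endoplasmic reticulum, was at 87.8, 26.6, 2.78 and 0.198 FPKM, and Gpx3, a secreted peroxidase, at 16.1, 26.9, 74.7 and 10.2. Of the 6 other peroxidases compared between the oocyte stages, 5 were lower and 1 (Gpx6) was higher in MII oocytes. Of 5 compared, 2 were lower in FGSCs against E12.5 PGCs and 0 higher, and of 6 compared in each case, 2 were higher and 4 lower in GV oocytes than in E12.5 PGCs, and 2 higher and 3 lower than in FGSCs. In TPM the count for FGSCs against E12.5 PGCs became 1 lower and 1 higher, and the other counts of peroxidases did not change.

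**Figure D5:**
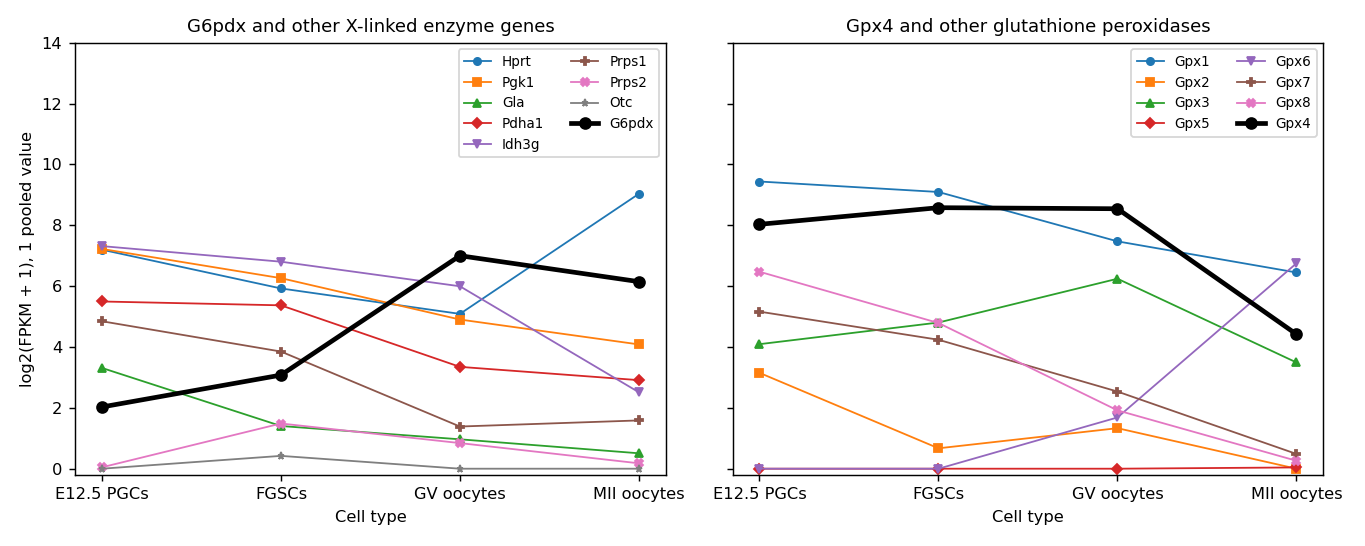
log2(FPKM + 1) in the 4 cell types of G6pdx (thick black line, left) with 8 other X-linked enzyme genes, and of Gpx4 (thick black line, right) with 7 other glutathione peroxidase genes; each point is 1 pooled value without error and lines only join the points of a gene. G6pdx is above its X-linked companions in GV oocytes at 127 FPKM, and Gpx6 is above Gpx4 in MII oocytes, at 107 against 20.4 FPKM.

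The pathways around the members gave further levels. Among 11 other pentose phosphate and ribose genes, Rpe and Rpia, which interconvert the pentose phosphates between the branches, had FPKM values of 6.38, 12.2, 19.5 and 105 and of 2.96, 2.18, 4.61 and 19.3 over the cell types, taken from E12.5 PGCs to MII oocytes as above. Both were highest in MII oocytes, as Taldo1 was in FPKM but not in TPM. Prps1, which makes phosphoribosyl pyrophosphate, was at 27.7, 13.4, 1.61 and 2.00 FPKM, and Pgm2, listed on chromosome 4, at 11.02, 10.3, 2.84 and 0.695. Whether this Pgm2 is an enzyme of pentose metabolism is uncertain. It is among the genes counted below as lower in GV oocytes and as lower in MII than in GV oocytes. The transketolase relatives Tktl1 and Tktl2 were at 3.53 FPKM or less in all cell types. Of these genes 2 of 8 compared were higher and 1 lower in FGSCs against E12.5 PGCs, 1 of 7 higher and 3 lower in GV oocytes than in E12.5 PGCs, 1 of 9 higher and 3 lower in GV oocytes than in FGSCs, and 4 of 8 higher and 1 lower in MII than in GV oocytes. In TPM the balance of the last of these counts turned, to 2 of 9 higher and 4 lower, and the others became 4 of 10 and 1, 3 of 9 and 3, and 0 of 10 and 5.

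Genes that supply cysteine and glutamate for Gclc and Gclm were highest in MII oocytes in several cases. Slc7a11, the cystine carrier of system xc-, was at 0.0233, 0.475, 5.82 and 45.2 FPKM in that order of cell types, and Slc3a2, its heavy chain, at 45.1, 53.7, 40.2 and 335. Cth, which releases cysteine from cystathionine, was at 0.108, 4.73, 0.218 and 212 FPKM, and Glud1, glutamate dehydrogenase, at 28.2, 38.0, 12.2 and 19.6. Of 12 listed genes, 5 of the 9 compared were higher and 1 lower in MII than in GV oocytes. In FGSCs against E12.5 PGCs 1 of 9 was higher and 1 lower, in GV oocytes against E12.5 PGCs 2 of 10 and 3, and in GV oocytes against FGSCs 2 of 12 and 5. In TPM 3 of 11 were higher and 3 lower in GV oocytes than in E12.5 PGCs, 3 of 12 and 6 in GV oocytes than in FGSCs, 6 of 11 and 0 in FGSCs against E12.5 PGCs, and 3 of 9 higher and 1 lower in MII than in GV oocytes.

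Nfe2l2, the stress factor known to bind the antioxidant response element, had 16.9 FPKM in E12.5 PGCs, 20.8 in FGSCs, 4.32 in GV oocytes and 31.3 in MII oocytes. It was thus lowest in GV oocytes and, in FPKM, highest in MII oocytes. From GV to MII oocytes the log2 difference of Gclm was -0.03 in FPKM and -1.16 in TPM. A link between Nfe2l2 and Gclm was not tested. Its partner Mafg was at 1.82, 7.86, 13.0 and 15.0 FPKM, and Nqo1, a target known from many tissues, at 15.6, 10.4, 1.29 and 32.9 (these 3 were named after their values were seen). Ftl1 and Fth1, the ferritin chains, were at 3513, 2508, 684 and 381 FPKM and at 1371, 1000.3, 522 and 103 FPKM. Sqstm1, an autophagy receptor, was at 30.2, 75.4, 54.0 and 7.72 FPKM, and Bach2, a repressor of the same family of sites, at 0.976, 1.59, 29.1 and 76.9. Of 15 genes of this pathway, 3 of 13 compared were higher and 0 lower in FGSCs against E12.5 PGCs, 4 of 14 higher and 4 lower in GV oocytes than in E12.5 PGCs, 3 of 15 higher and 3 lower in GV oocytes than in FGSCs, and 4 of 15 higher and 6 lower in MII than in GV oocytes. In TPM these became 5 of 15 and 0, 5 of 14 and 4, 2 of 15 and 8, and 3 of 15 and 8.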

How the data were processed

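Gene expression was measured by RNA-seq in 9 libraries of 4 cell types. Per the labels, lysed cells were reverse transcribed from an oligo(dT) primer and the cDNA was amplified by PCR. The authors aligned reads with TopHat2 and quantified them with Cufflinks 2.2.1 (submitters' processing notes, mm9; the study's methods name another build, and the coordinates in the tables are mm9). The 6 deposited tables, 1 per pair of cell types, hold FPKM values pooled by the authors over the libraries of a cell type. A cell type had the same value in all of its tables for every gene they share (0 differed; 1 row was absent from the table of E12.5 PGCs and MII oocytes), and 0 columns of per-sample values were left out. The tables also hold the authors' own fold changes, test statistics and p-values, which were not used.

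Values were read with pandas 2.3.3 and numpy 2.4.6 in Python 3.11.15. Repeated symbols were reduced to the row with the highest FPKM (34617 symbols). Differences of log2(FPKM + 1) were computed from the deposited FPKM for genes at 1 FPKM or more in either cell type, and 2-fold was the size counted. No test was possible with 1 pooled value per cell type, the depth is unknown, and no interval is given. The counting was tested on simulated data. Alternatives were TPM, scaling by median ratios, a pseudocount of 0.1, sizes of 1.5-fold and 3-fold, no filter or 5 FPKM, summed symbols and the table of each comparison.

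Named genes were all members, the 4 most abundant genes of each list, copies of members, and the 5 genes nearest to G6pdx and to Gsr by Euclidean distance of centred log2(FPKM + 1), among genes at 5 FPKM or more in 1 cell type. Other genes named, outside this rule, are cell type markers, genes that share a member's span, and those said to be named after their values were seen. Members and lists were chosen with earlier results of these data known. Near copies were sought with BLASTN 2.17.0 in GENCODE M21 transcripts, and promoters were taken from RefSeq (GRCm38.p6). Plots were drawn with matplotlib 3.10.9.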

Additional observations from a re-analysis of the deposited data

How the results depend on the processing

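No paired analysis was possible because the tables hold 1 pooled value per cell type, which carries no replicate number, and for the same reason no library could be left out in turn. For FGSCs against E12.5 PGCs the members higher by 2-fold numbered 4, and 8 in TPM and 0 at a size of 3-fold, and the members lower numbered 1, and 0 in TPM, with median ratio scaling and at 3-fold. For GV oocytes against E12.5 PGCs the members lower numbered 2, and 1 at 3-fold. For MII against GV oocytes the members higher numbered 1, and 0 in TPM, with median ratio scaling and at 3-fold, and 2 at 1.5-fold. All other counts of members stayed within 1.5 times under every alternative run. No member's called difference changed sign. Of the 40 differences of single members, 31 kept their side of 2-fold in TPM, 37 with median ratio scaling and 40 with a pseudocount of 0.1. With median ratio scaling Gclm was at -0.84 in FGSCs against E12.5 PGCs, and G6pdx was at -1.30 and Taldo1 at 0.92 in MII against GV oocytes. The scaling alternatives change the total to which a cell type is set, and with it the genes that reach 1 unit (13087 genes compared between FGSCs and E12.5 PGCs, 14752 in TPM and 13327 with median ratio scaling). Differences between library preparations and between pools could not be separated from those between cell types, and values below 1 FPKM are the least certain since the reads behind them are not known.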

Other observations

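Outside the pentose phosphate pathway, NADPH is made by malic enzymes, isocitrate dehydrogenases and folate enzymes. Me1, the cytosolic malic enzyme, had 3.52 FPKM in E12.5 PGCs, 3.33 in FGSCs, 38.4 in GV oocytes and 341 in MII oocytes, and Mthfd2, a mitochondrial folate enzyme, at 10.4, 12.1, 39.5 and 309. Nadk, which phosphorylates NAD+ to NADP+, was at 6.14, 48.0, 18.4 and 193 FPKM. Idh2, the mitochondrial NADP+-dependent isocitrate dehydrogenase, went the other way, at 163, 161, 6.92 and 0.387. Of the 13 genes of this list in the tables, 5 of 12 compared were higher and 3 lower in MII than in GV oocytes, and 5 and 6 in TPM. The counts were 2 of 10 higher and 3 lower in FGSCs against E12.5 PGCs, 4 of 13 and 5 in GV oocytes than in E12.5 PGCs, and 5 of 13 and 6 in GV oocytes than in FGSCs. In TPM these became 2 of 11 and 2, 4 of 13 and 5, and 5 of 13 and 7.

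Among enzymes that use glutathione, Mgst3, a microsomal transferase, had 46.9, 29.0, 147 and 1301 FPKM in E12.5 PGCs, FGSCs, GV and then MII oocytes, Gstm5 at 147, 46.2, 136 and 1174, Gsta4 at 59.6, 36.5, 246 and 15.1, and Gstm3 at 321, 47.6, 0.223 and 0. How reads of near-identical transferase genes were assigned is not given in the sources used here, so these levels are uncertain. Of 26 transferases, 4 of 22 compared were higher and 13 lower in MII than in GV oocytes, 3 of 23 higher and 8 lower in FGSCs against E12.5 PGCs, 8 of 23 and 10 in GV oocytes than in E12.5 PGCs, and 8 of 24 and 7 in GV oocytes than in FGSCs. In TPM these became 3 of 22 and 15, 4 of 23 and 3, 9 of 24 and 10, and 8 of 24 and 13, so the balance turned for FGSCs against E12.5 PGCs and for GV oocytes against FGSCs. Ggct, which breaks down gamma-glutamyl peptides, was at 13.8, 11.004, 175 and 955 FPKM, Chac2, which degrades glutathione, at 4.66, 2.45, 1.12 and 25.4, Lap3, a peptidase, at 53.5, 57.8, 13.3 and 4.76, and Cndp2, another, at 13.2, 21.1, 6.87 and 0. Of the 13 breakdown genes, 3 of 9 compared were higher and 6 lower in MII than in GV oocytes, 2 of 8 and 0 in FGSCs than in E12.5 PGCs, 4 of 9 and 4 in GV oocytes than in E12.5 PGCs, and 2 of 9 and 4 in GV oocytes than in FGSCs. In TPM these became 2 of 9 and 6, 4 of 8 and 0, 4 of 9 and 3, and 2 of 9 and 5.

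Glrx5, a mitochondrial glutaredoxin of iron-sulfur cluster assembly, was at 262, 56.6, 778 and 70.3 FPKM, and Glrx, the cytosolic glutaredoxin, at 39.1, 37.9, 221 and 249.03. Glrx2 was at 247, 98.8, 11.4 and 0.920 FPKM, and Esd, which acts in glutathione-dependent formaldehyde removal, at 245, 112, 60.01 and 7.19. Of the 7 glutaredoxin and glyoxalase genes, 6 were lower and 0 higher in MII than in GV oocytes, also in TPM, 4 lower and 0 higher in FGSCs than in E12.5 PGCs (1 lower in TPM), and 2 higher with 4 lower and 2 higher with 3 lower (4 lower in TPM) in GV oocytes than in E12.5 PGCs and FGSCs. Prdx1, a peroxiredoxin, was at 821, 552, 796 and 4529 FPKM, Prdx2 at 438, 319, 640 and 705, Txnip, a thioredoxin-binding protein, at 16.2, 16.5, 368 and 1235, and Txn2, the mitochondrial thioredoxin, at 216, 106, 182 and 112. Of the 16 genes of that system 4 of 16 compared were higher and 1 lower in FGSCs against E12.5 PGCs, 2 of 15 and 3 in GV oocytes than in E12.5 PGCs, 5 of 16 and 6 in GV oocytes than in FGSCs, and 3 of 15 and 5 in MII than in GV oocytes. In TPM these became 6 of 16 and 0, 3 of 16 and 4, 2 of 16 and 9, and 1 of 15 and 9. Sod1, the cytosolic superoxide dismutase, was at 2359, 659, 2300 and 269 FPKM, Sod2, its mitochondrial counterpart, at 66.2, 22.7, 17.5 and 31.1, and Cat, catalase, at 18.5, 22.2, 5.50 and 0.341. Of the 3 genes compared among the 4 dismutases and catalase, 0 were higher and 2 lower in FGSCs and in GV oocytes than in E12.5 PGCs, 1 higher and 1 lower in GV oocytes than in FGSCs, and 0 higher and 2 lower in MII than in GV oocytes. In TPM 1 was lower in FGSCs against E12.5 PGCs, and the other counts did not change.

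The genes nearest to G6pdx in their pattern over the 4 cell types, by Euclidean distance of centred log2(FPKM + 1) among 11644 genes, were Nfix (distance 0.234), 2010001K21Rik (0.353), Stk36 (0.401), Slc6a9 (0.413) and Fam131a (0.427). Slc6a9, the glycine carrier GLYT1, was at 1.11, 4.56, 88.8 and 35.003 FPKM, and Nfix, a transcription factor, at 0.0226, 0.796, 29.1 and 17.7. Nearest to Gsr were Syncrip (0.139), Dnpep (0.140), Aldh7a1 (0.142), Sparcl1 (0.201) and Syap1 (0.241). Aldh7a1, an aldehyde dehydrogenase of lysine breakdown, was at 106, 95.4, 29.1 and 6.17 FPKM.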
